A study of Mus musculus with 10 samples.

Results

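Receptors by which blood stem and progenitor cells hold on to the bone marrow and find their way back to it were examined in 9 genes: Cxcr4, Itga4, Itgb1, Itgal, Itgb2, Cd44, Pecam1, Pvr and Selplg. The array carries 29 probes whose single gene symbol in the platform annotation, current or older, is one of these names, out of 45281 probes in all and 19057 genes with a symbol. The genes were picked by name with earlier results of these data known. Pvr had been singled out for the small unadjusted p of one of its probes between the groups, so its difference is described below without a test.

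RNA came from sorted bone marrow LSK cells, the lineage-negative fraction positive for Sca1 and cKit in which blood stem cells and early progenitors lie. There were 10 arrays, 5 labelled control and 5 labelled LysM-KI, each named for a mouse. Every label gives LysMCre as the strain and an age of 9 to 16 weeks. In LysMCre mice the Cre recombinase is driven by Lyz2, a gene active chiefly in myeloid cells. The labels do not say which allele LysM-KI denotes, nor whether Cre was present in the control mice beyond the shared strain name.

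Stem and progenitor cells rest in the marrow through a small set of surface proteins. Cxcr4 is the receptor for the chemokine Cxcl12 made by marrow stroma, and its signal both retains the cells and turns integrins into their adhesive form. The α4 chain (Itga4) pairs with the β1 chain (Itgb1) to form VLA-4, which binds Vcam1 and fibronectin, and the αL chain (Itgal) pairs with β2 (Itgb2) to form LFA-1, which binds ICAM proteins. Selplg (PSGL-1) is a selectin ligand, Cd44 binds hyaluronan, Pecam1 (CD31) binds itself on neighbouring cells, and Pvr (CD155) is an adhesion molecule of the nectin-like family that is bound by Cd226, Tigit and Cd96 on T and NK cells.

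The arrays detected between 15234 and 18801 probes each, 15234 to 17093 on control and 16430 to 18801 on LysM-KI arrays, and their median raw intensities lay between 102.3 and 140. A probe was called detected where its detection p was under 0.05. Control replicate 4, with the fewest detected probes, stood apart on the first principal component, and LysM-KI replicate 2 on the second. Kit, the gate receptor, was detected on all 10 arrays, with a log2 level of 8.83 ± 0.48 (SD, n = 5) in control and 9.25 ± 0.36 in LysM-KI cells, and 9 of 10 stem and progenitor markers with a probe were detected on at least 5 arrays. Markers of other lineages reached 5 arrays in 4 of 9 genes for neutrophils, 5 of 7 for B and plasma cells, 3 of 5 for dendritic cells, 3 of 6 for mast cells and basophils, 5 of 7 for megakaryocytes, 3 of 9 for T and NK cells, 2 of 5 for erythroid cells and 0 of 7 for macrophages and monocytes. The summed linear level of the passing B and plasma cell markers was 2052 to 4594 in control and 2047 to 3578 in LysM-KI mice. Of these 5 markers, 3 had a log2 fold change above 0 and 2 below. Cd79b, Ebf1 and Vpreb1 were at 0.83, 0.59 and 0.47. Mzb1 and Jchain are genes of antibody-secreting cells named here after their values were seen. They were at -1.90 (limma adjusted p = 0.392) and -0.77 (limma adjusted p = 0.877). The part of B and plasma cells in the receptor values was not tested.

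Most of the receptors were found in every mouse. A probe detected on all 10 arrays existed for Cxcr4, Itga4, Itgb1, Itgb2, Cd44, Pecam1 and Selplg, that is for 7 of 9 genes, where 29.7% of all genes with a symbol had one. The exceptions were Itgal, detected on 2 control and 4 LysM-KI arrays, and Pvr. The share of genes was not matched for the number of probes per gene, which was 9 for Cd44 and 6 for Itga4. Of the 29 probes, 13 were detected on all arrays, 1 on none, and 20 on at least 5, the filter that let a probe into the comparison. Over all probes of the array, 21.4% were detected on all arrays and 38.1% passed this filter. A probe that passed this filter through 1 group alone is bound to differ, so the passing probes are no sample of all 29.

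**Figure D1:**
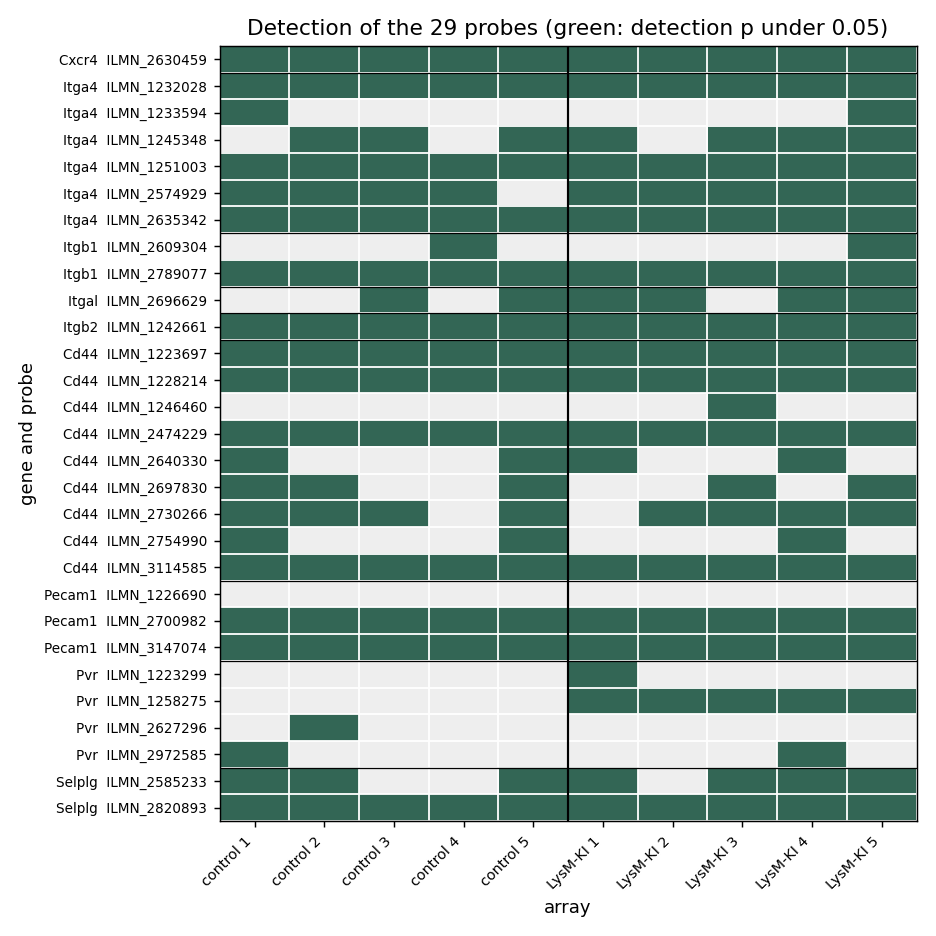
Detection of all 29 probes (rows, by gene) on the 10 arrays (columns, control left and LysM-KI right of the vertical line), with green cells where the detection p was under 0.05. Cxcr4 was detected everywhere, Itgal on 6 arrays, and of the 4 Pvr probes ILMN_1258275 was detected on 5 of 5 LysM-KI and 0 of 5 control arrays.

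The comparison of LysM-KI with control cells asks which of these receptors differ in transcript level. Pvr, singled out by this same contrast, is given no verdict here. None of the other 8 receptor genes was shown to differ beyond the spread between mice. Their log2 fold changes on the representative probe (the passing probe with the highest mean) ran from -0.13 for Pecam1 to 0.44 for Itga4, and 5 of 8 were above 0. Among 19 passing probes of these 8 genes, 0 had a limma adjusted p under 0.05 (range 0.938 to 0.992, adjusted over 17245 probes) and 0 had an unadjusted p under 0.05. Over all probes limma called 0%, and an unadjusted p under 0.05 was reached by 5.35%, 3.4% higher and 1.94% lower in LysM-KI cells. Of the 20 passing probes, Pvr included, 12 had a fold change above 0, as did 53.4% of all probes tested. The median over the 8 genes was 0.10, and over all 8896 genes the median was 0.05 with 55.4% above 0. In sorted bulk cells, fewer cells that carry a transcript and less of it in each cell cannot be told apart.

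Cxcr4, the chemokine receptor, had the smallest spread between mice of the 20 passing probes. Its log2 levels were 10.59, 10.69, 10.85, 10.50 and 10.64 in control mice and 10.28, 10.71, 10.61, 10.43 and 10.74 in LysM-KI mice. LysM-KI replicates 1 and 4 lay below every control, control replicate 3 above every LysM-KI mouse, and the rest were mixed. The log2 fold change was -0.10 (SE 0.20, 95% interval -0.55 to 0.34, limma adjusted p = 0.976). The pooled SD of 0.17 was smaller than that of 98.3% of all passing probes, whose median SD was 0.65. A single probe stands for this gene.

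**Figure D2:**
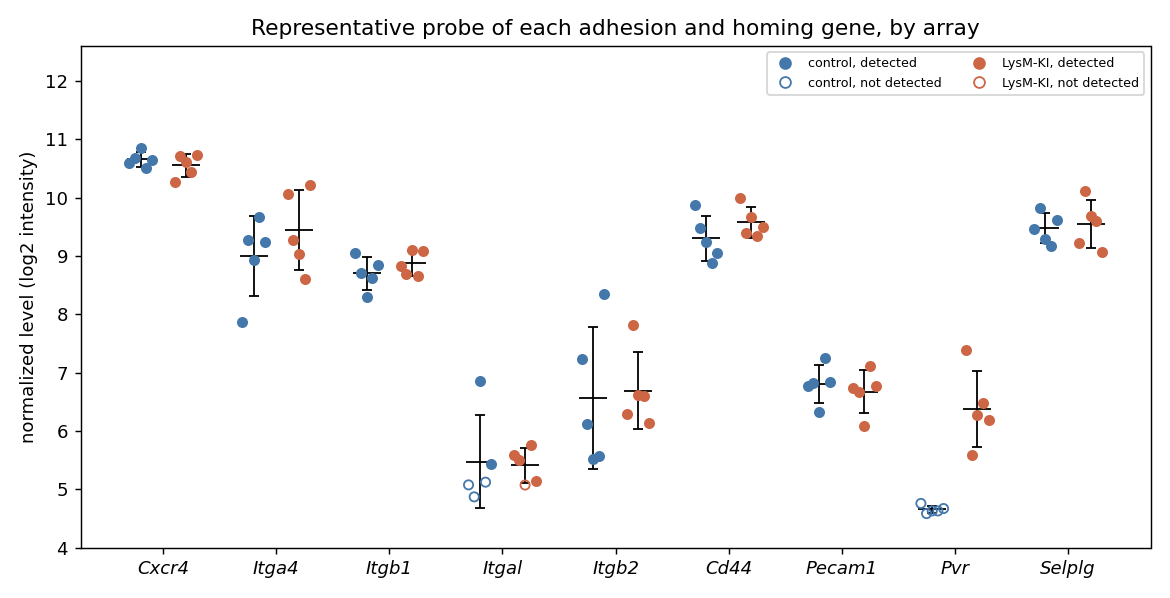
Normalized log2 intensity of the representative probe of each of the 9 genes, 1 point per mouse, filled where the probe was detected and open where it was not, with bars for the mean and SD of each group (n = 5). Levels of different probes cannot be set against each other; within a gene the groups overlapped for all but Pvr, whose control points were all undetected between 4.58 and 4.76.

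The VLA-4 chains gave a steady and an unsteady picture. Itgb1, the β1 chain, had log2 levels of 9.06, 8.71, 8.29, 8.63 and 8.84 in control and 8.82, 8.70, 9.11, 8.66 and 9.08 in LysM-KI mice. Control replicates 3 and 4 lay below all LysM-KI mice and the other controls among them, and the fold change was 0.17 on the log2 scale (95% interval -0.33 to 0.66). The other Itgb1 probe was detected on 2 of 10 arrays and did not enter the comparison.

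Itga4, the α4 chain, is covered by 6 probes, and 5 of them passed. On its representative probe, ILMN_1232028, the log2 levels were 7.87, 9.27, 8.94, 9.67 and 9.24 in control and 10.06, 9.28, 9.04, 8.60 and 10.22 in LysM-KI mice. LysM-KI replicates 1 and 5 lay above every control and control replicate 1 below every LysM-KI mouse, while the rest were mixed. The log2 fold change was 0.44 (SE 0.41, 95% interval -0.46 to 1.35), and 0.16 without control replicate 1, 0.29 without LysM-KI replicate 1 and 0.25 without LysM-KI replicate 5.

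Of the 5 passing Itga4 probes, 3 had a log2 fold change above 0 and 2 below. ILMN_2574929, paired with a cDNA clone and detected on 9 arrays, gave 0.22 (95% interval -1.21 to 1.64). ILMN_1245348, paired with the RefSeq transcript and detected on 7 arrays, gave 0.07 (95% interval -0.51 to 0.65). On ILMN_1251003 and ILMN_2635342, both paired by the annotation with the RefSeq transcript and both detected in every mouse, the log2 fold changes were -0.84 (95% interval -2.30 to 0.61) and -0.66 (95% interval -1.49 to 0.18). Single mice ranged from 6.77 in control replicate 4 to 10.33 in control replicate 3 on the first of these, a spread of 3.56 within the control group alone. The mean of all 5 passing probes gave -0.15, so the sign for Itga4 depended on the probe. The fold changes of the 5 probes spanned 1.29, a span reached by 9.77% of the 3429 genes with at least 2 passing probes. In an exact two-sided permutation test of the gap between probes, ILMN_1232028 differed from ILMN_2635342 by 1.10 between the groups (p = 0.103, adjusted p = 0.524 over 11 probe pairs) and from ILMN_1251003 by 1.29 (p = 0.230, adjusted p = 0.524).

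The LFA-1 chains were measured by 1 probe each. For Itgal, the αL chain, control levels on the log2 scale were 5.08, 4.87, 6.85, 5.12 and 5.44 and LysM-KI levels 5.59, 5.51, 5.07, 5.76 and 5.14. Control replicate 3 stood far above the others, and 4 of the 10 values, 3 of them in control mice, were not told apart from background. The log2 fold change was -0.06 (95% interval -0.87 to 0.76), and without control replicate 3 it was 0.29.

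Itgb2, the β2 chain shared by the leukocyte integrins, was detected in every mouse and varied widely. Its log2 levels were 7.24, 6.11, 5.52, 5.57 and 8.35 in control and 6.29, 7.81, 6.62, 6.60 and 6.13 in LysM-KI mice. Control replicate 5 and LysM-KI replicate 2 were the highest and control replicates 3 and 4 the lowest, so that the control mice enclosed the LysM-KI mice on both sides. The log2 fold change of 0.13 had a 95% interval from -1.09 to 1.36, and leaving out control replicate 4 together with LysM-KI replicate 2 turned it to -0.39.

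No relation between the 2 chains of an integrin could be shown across 10 mice. Only the representative probe of each gene was used, and that of Itgal was detected on 6 of 10 arrays. Over 10 arrays, Itga4 and Itgb1 had a Pearson r of 0.02 (permutation p = 0.948) and a Spearman rho of 0.09 (permutation p = 0.811), and without the 2 mice farthest out in Itga4 r was 0.19. Itgal and Itgb2 had an r of -0.21 (permutation p = 0.572) and a rho of -0.08 (permutation p = 0.839), and r was 0.49 without the 2 mice farthest out in Itgal. The adjusted p over both pairs was 0.948 for each r and 0.839 for each rho. After group means were removed, r was -0.11 and -0.20. Groups of 5 mice are too small to give the relation within a group.

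Cd44, the hyaluronan receptor, has 9 probes, of which 6 passed and 4 were detected in every mouse. On its representative probe the log2 levels were 9.87, 9.48, 9.25, 8.89 and 9.05 in control and 10.00, 9.40, 9.67, 9.34 and 9.49 in LysM-KI mice. Control replicates 3, 4 and 5 lay below all LysM-KI mice and the other 2 among them. The log2 fold change was 0.27 (95% interval -0.29 to 0.83, limma adjusted p = 0.950). The 4 probes detected everywhere gave 0.27, 0.23, 0.03 and -0.11, and the 2 dimmer ones -0.16 and -0.35. The 3 probes that did not pass were detected on 1, 4 and 3 of 10 arrays. The gaps between the representative probe and the other 5 had adjusted p from 0.524 to 0.944 (exact permutation test).

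Selplg, the selectin ligand, had log2 levels of 9.47, 9.83, 9.28, 9.18 and 9.61 in control and 9.22, 10.12, 9.69, 9.61 and 9.08 in LysM-KI mice. The LysM-KI mice spread on both sides of the controls. The log2 fold change was 0.07 (95% interval -0.50 to 0.64), and it was -0.15 when control replicate 4 was left out together with LysM-KI replicate 2. Its second probe, paired with a cDNA clone, was detected on 7 of 10 arrays and gave 0.44 (95% interval -0.55 to 1.43), with LysM-KI replicate 1 highest at 7.45.

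Pecam1, which is found on stem and progenitor cells as well as on endothelium, has 3 probes. The representative probe had log2 levels of 6.78, 6.82, 6.33, 7.25 and 6.83 in control and 6.73, 6.67, 6.09, 7.11 and 6.78 in LysM-KI mice. The groups overlapped over nearly their whole range, and the log2 fold change was -0.13 (95% interval -0.70 to 0.45). The second probe, ILMN_2700982, gave 0.51 (95% interval -0.65 to 1.67), with LysM-KI replicate 2 at 8.47 against at most 6.72 in any other mouse. The third, paired with a cDNA clone, was detected on no array. The gap of -0.64 between the first 2 probes had an exact permutation p of 0.341 (adjusted p = 0.536).

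Of 13 markers of stroma and endothelium, 2 passed the detection filter, Pdgfrb and Sparc, each detected on 4 control and 2 LysM-KI arrays. Neither was called, with log2 fold changes of -1.04 for Pdgfrb (limma adjusted p = 0.819) and -1.40 for Sparc (limma adjusted p = 0.881). Their summed linear level ran from 119 to 480 in control and from 62.4 to 79.1 in LysM-KI mice, without overlap. The value of 480 came from control replicate 4, the array with the fewest detected probes, and the other controls lay between 119 and 173. Of all single probes tested, 0.91% showed no overlap, and no such share was taken for sums of 2 markers. The mean log2 levels in LysM-KI mice were 5.14 for Pdgfrb and 5.08 for Sparc, and most of these values were not detected. The LysM-KI sum is therefore largely background. The part of stromal and endothelial cells in the Pecam1 values was not tested. Of the endothelial genes, for which Pecam1 is a marker too, Kdr and Cav1 were detected on 0 arrays, Cdh5 on 1 and Emcn on 3, all in LysM-KI mice.

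Pvr was the receptor with groups apart. On the probe ILMN_1258275 its log2 levels were 4.76, 4.58, 4.63, 4.63 and 4.67 in control and 7.39, 5.58, 6.27, 6.48 and 6.18 in LysM-KI mice. Every LysM-KI mouse lay above every control mouse, with LysM-KI replicate 1 the highest. The probe was detected on 5 of 5 LysM-KI arrays, with a detection p of at most 0.00962, and on 0 of 5 control arrays, where the detection p was 0.265 to 0.637. In raw intensity the control arrays read 94.4 to 135.9 and the LysM-KI arrays 156.3 to 272.5.

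The control level of Pvr is therefore only a bound. Set against the dimmest detected signals of the control arrays (mean log2 level 5.25), the LysM-KI mean of 6.38 was at least 2.19-fold higher. The measured group means differed by 1.73 on the log2 scale, and by 1.48 to 1.93 when single arrays were left out. Without background correction the difference was 0.70 and the bound at least 1.37-fold. These are the values by which the gene was chosen. Complete separation with LysM-KI higher was seen in 0.574% of passing probes, and detection on all 5 LysM-KI and no control array in 13 of 45281 probes (0.0287%), against 2 probes (0.00442%) with the reverse pattern. All LysM-KI arrays but replicate 2 (16430) also detected more probes than any control array (at most 17093). The part of this in the Pvr detection was not tested.

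The remaining Pvr probes gave too little signal to show or to lack such a difference. They are the 3 that the annotation pairs with the RefSeq transcript of Pvr, whereas ILMN_1258275 is paired with a cDNA clone. Of their 30 values 4 were detected, 2 in control and 2 in LysM-KI mice, and their log2 levels ran from 4.43 to 5.88. None of the 3 probes passed the filter. Where in the transcript each probe lies was not determined here. The Pvr difference thus rests on 1 of 4 probes.

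**Figure D3:**
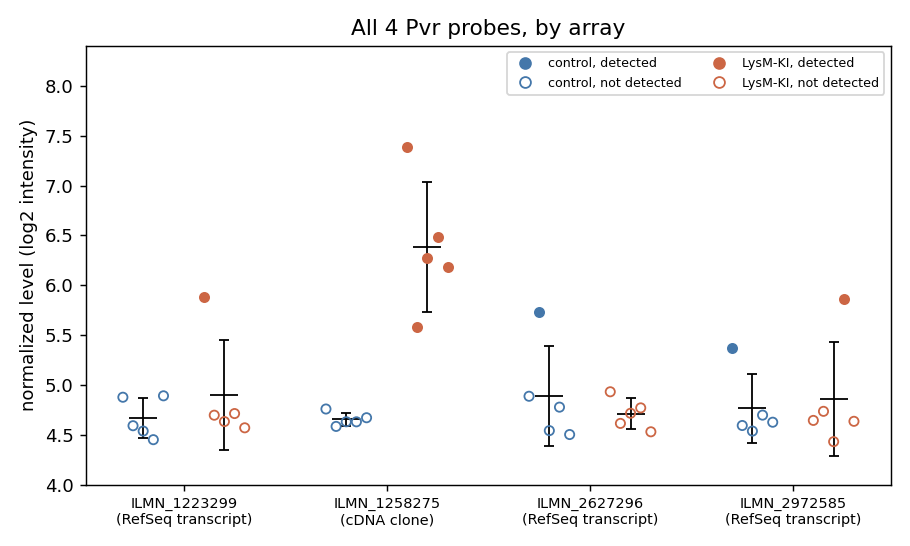
Normalized log2 intensity of all 4 Pvr probes, 1 point per mouse, filled where detected and open where not, with bars for the mean and SD of each group (n = 5); the label under each probe says what the annotation pairs it with. The groups separate on ILMN_1258275 (at most 4.76 in control, at least 5.58 in LysM-KI) and overlap on the other 3 probes, which were mostly not detected.

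Probes of one receptor could point in different directions. Of the 4 receptor genes with at least 2 passing probes, Itga4, Cd44 and Pecam1 had probes of both signs and Selplg did not. This was common on the array, where 50.04% of the 3429 such genes had passing probes of both signs, with a median span of 0.47 between them. The 11 gaps tested between probes of a receptor had adjusted p from 0.524 to 0.944. The design could not call a single gap, since the smallest exact p of 0.00794 becomes 0.0873 when 1 gap of 11 reaches it.

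**Figure D4:**
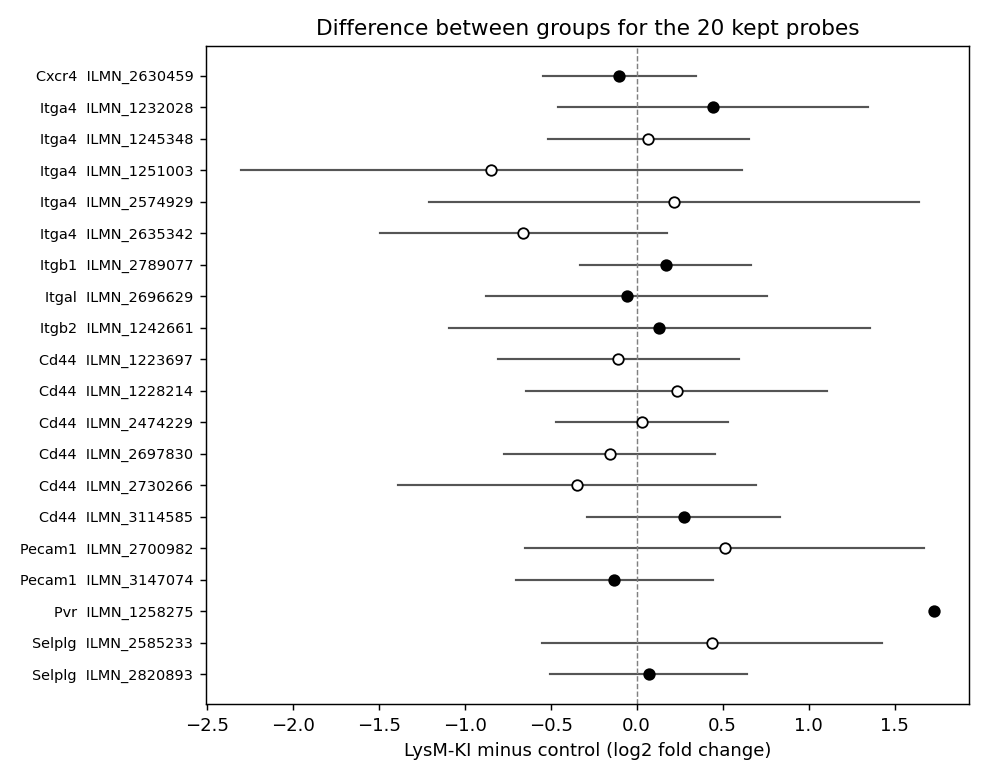
Log2 fold change (LysM-KI minus control) of the 20 passing probes, filled for the representative probe of each gene, with lines for limma's 95% interval. The line is left out for Pvr, whose difference was used to choose it; all 19 intervals drawn cross 0, and the widest belongs to ILMN_1251003 of Itga4.

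Of 17 ligands and partners of the receptors with a probe, 10 passed the detection filter, which 46.7% of all genes with a symbol did. Icam1, Mif and Hmgb1 were detected on all arrays. Cxcl12, the ligand of Cxcr4, was detected on 4 arrays, Vcam1 on 3 and the fibronectin gene Fn1 on 2. Of the 10 passing genes, 6 had a log2 fold change above 0 and 4 below, with a median of 0.13. Icam1, a ligand of LFA-1, had a log2 fold change of 0.19 (95% interval -0.46 to 0.85), and Icam2, another, one of 0.74 (95% interval -0.56 to 2.04). Lower in LysM-KI cells were Icam4 at -0.29 (95% interval -1.20 to 0.63), F11r at -0.53 (95% interval -1.52 to 0.46) and Has2 at -0.32 (95% interval -0.85 to 0.22). Cd226, a receptor for Pvr, was detected on 1 control and 4 LysM-KI arrays, with a log2 fold change of 0.28 (95% interval -0.31 to 0.86). Tigit was detected on 0 arrays, and Cd96 had a log2 fold change of -0.37 (95% interval -1.68 to 0.94).

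Further adhesion and homing genes were taken from 6 lists with 183 genes in all, 173 of them with a probe and 111 passing. After adjustment limma called 0 of the 111, the smallest adjusted p being 0.824. At an unadjusted p under 0.05 there were 3 (2.70%), all 3 of them lower, beside 3.26% higher and 1.79% lower over all genes. Their median log2 fold change was 0.09 with 66 above 0, beside the 0.05 given above for all genes.

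Among other integrin chains, 8 of 21 with a probe passed, with a median log2 fold change of 0.10 and 5 above 0. Itgav, the αv chain, had levels of 7.23 ± 0.51 (SD, n = 5) in control and 6.38 ± 0.60 in LysM-KI cells, differing by -0.85 on the log2 scale (SE 0.35, limma adjusted p = 0.881), with 4 of 4 passing probes below 0. Itga9, the α9 chain, was at -1.73 with an SE of 0.82, and Itgb7, the β7 chain that also pairs with α4, at 0.52 with an SE of 0.36.

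Of 43 genes with a probe for the machinery that switches integrins on, 30 passed, beside the 46.7% of all genes, and 26 were detected on all arrays, beside 29.7%. The 30 had a median log2 fold change of 0.14, 18 above 0 and 0 at an unadjusted p under 0.05. Talin (Tln1), which binds the integrin β tail, is a direct partner of the integrins and had a log2 fold change of -0.02 (95% interval -0.59 to 0.55). The tetraspanin gene Cd151 was at 1.15 (95% interval -0.04 to 2.34, limma adjusted p = 0.934), detected on 2 control and 5 LysM-KI arrays, with 3 of 3 probes above 0. Its control mean of 5.40 lay near the dimmest detected signals of the control arrays (mean 5.25), so the size of the difference is uncertain.

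For Cxcr4 signalling and trafficking, 19 of 28 genes passed, with a median of 0.04, 10 above 0 and 0 at an unadjusted p under 0.05. The G protein subunit gene Gnb1 was at 0.46 (95% interval -0.36 to 1.28). Ctsg, a neutrophil protease known to cleave Cxcl12 and Cxcr4, was at 0.62 (95% interval -0.53 to 1.77). Pik3cg was at -0.56 (95% interval -1.67 to 0.56), with 2 of 2 passing probes below 0.

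Enzymes that build the sugar part of selectin ligands such as Selplg were measured nearly in full, with 24 of 25 passing, a median of 0.12 and 15 above 0. St3gal1, a sialyltransferase, had levels of 8.04 ± 0.92 (SD, n = 5) in control and 6.94 ± 0.61 in LysM-KI cells, differing by -1.11 on the log2 scale (SE 0.46, limma adjusted p = 0.881). Of its 3 probes 2 passed, at -1.11 and -0.35. Fut7, the fucosyltransferase that completes selectin ligands, was at 0.65 (95% interval -0.18 to 1.48).

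Of other adhesion and homing receptors, 21 of 40 passed, with a median of 0.08 and 13 above 0. The chemokine receptor gene Ccr9 had the smallest p of all 6 lists, at -1.05 on the log2 scale (SE 0.35, limma adjusted p = 0.824), and was detected on 5 control and 3 LysM-KI arrays. Thy1 was at -0.50 (95% interval -1.26 to 0.25), and Lgals1, the gene of galectin-1, at 0.57 (95% interval -0.29 to 1.43).

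The genes whose levels ran most closely with each receptor over the 10 mice were looked up among the 8896 genes, as a description of these arrays. Pearson r with the closest gene lay between 0.84 (Mafg with Itga4) and 0.95 (Olfr262 with Itgb2 and Dr1 with Cd44). The Olfr262 probe was detected on only 5 of 10 arrays. Kcnh6 was closest to Cxcr4 at 0.93 and Lrrfip2 to Itgb1 at 0.91. Usp53 was closest to Pvr at 0.92. All these points share the normalization and the depth of their array, and the highest of many correlations over 10 arrays is large by selection.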

How the data were processed

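The labels' protocols give Trizol extraction, DNase treatment and amplification to biotinylated cDNA with the WT-Ovation Pico system. The authors deposited a linear intensity for each probe that is not normalized, and beside it a fraction headed as a detection p. This fraction rises with the intensity of its own array (rank correlation at least 0.990, at most 0.851 with another array), so 1 minus it was used. The sources used here do not give the scanner software. The authors also deposited log2 values, which matched log2 quantile-normalized intensities centred on probe medians within 0.0131 (column medians -0.000897 to 0.00404), and served as an alternative. How they were made is not stated.

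Intensities were normalized with neqc of limma 3.58.1 in R 4.3.3 (normexp from the detection p, offset 16, quantile, log2). An offset pulls dim probes toward a difference of 0. Probes detected on at least 5 of 10 arrays (17245) were tested with limma's moderated test, two-sided, 11.1 degrees of freedom, Benjamini-Hochberg over all of them. The number of arrays limits the precision. The fit was tested on simulated data. Gaps between probes of a gene were tested over all 252 divisions of the arrays, where the smallest p is 0.00794, and correlations with 100000 permutations. Symbols came from the platform annotation, updated through Entrez identifiers (99.8% matched); 34885 probes had 1 symbol, 18 several and 10378 none.

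The members and lists were chosen with earlier results of these data known. The text names the 9 genes, up to 3 genes of the smallest p in each list, and their ligands and partners. Replicate numbers occur in both groups, but same-numbered arrays did not deviate together (correlations -0.03 to 0.06), so groups were compared without pairing. The labels give no chip, sex or day. P-values measure the spread between mice together with that of sorting and amplification.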

Additional observations from a re-analysis of the deposited data

Results flagged for a closer look

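Of 42 groups of 5 values examined (both groups for the 20 passing probes and for the number of detected probes), 3 held an array whose gap to its nearest neighbour exceeded 0.71 of the range. Chance gives such a gap in about 1 in 20 groups. Itgal in control replicate 3 was at 6.85 on the log2 scale against at most 5.44 in the other controls. Itga4 on ILMN_1245348 in control replicate 1 was at 4.51, below background, against at least 5.30 in the other controls. The number of detected probes on control replicate 4 was 15234, with the other control arrays between 16835 and 17093.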

How the results depend on the processing

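All values here are log2 fold changes on the representative probe unless said otherwise. Under all alternatives, limma called 0 probes at an adjusted p of 0.05. At an unadjusted p under 0.05 there were 922 probes, 1848 with no filter, 531 with detection on all arrays, 980 with the replicate block and 743 to 1224 with single arrays left out. With the replicate block no call changed, and same-numbered arrays correlated at -0.03 to 0.06, with 2 of 10 arrays closest to their own number. Median scaling moved the median of all passing probes to 0.13. The receptor genes above 0 numbered 6 of 9 in the main setting, beside 55.4% of all genes. They numbered 4 to 8 with single arrays left out, and 4 without both control replicate 4 and LysM-KI replicate 2. That last choice was made after the data had been seen. These counts include Pvr, which was singled out by this contrast and stayed above 0 wherever it had a value. Cxcr4 and Itgb1 kept their sign under every alternative run. Each has 1 passing probe, so the mean of all passing probes was no alternative for them. The measured Pvr difference was 1.73, and 0.70 without background correction, 0.69 on the authors' values and 1.01 with an offset of 50. Pvr was not detected in control mice, so only bounds hold: at least 2.19-fold, 1.37-fold without background correction and 1.65-fold with an offset of 50. It has no value where detection on all arrays is required, and neither has Itgal. These signs turned: Itgb2 without background correction (-0.0014), on the authors' values (-0.0024) and with array weights (-0.085); Selplg with cyclic loess (-0.020); Itgal and Pecam1 with median scaling (0.014 and 0.031); and, with the mean of all passing probes, Itga4 (-0.15), Cd44 (-0.011) and Pecam1 (0.19). Without both of those arrays Itgb2 was at -0.39 and Selplg at -0.15. With single arrays left out, Cxcr4 ran from -0.15 to -0.031, Itga4 from 0.16 to 0.65, Itgb1 from 0.064 to 0.26 and Cd44 from 0.17 to 0.41. Itgal ran from -0.21 to 0.29 (above 0 without control replicate 3 or LysM-KI replicates 3 or 5), Itgb2 from -0.15 to 0.58 (below 0 without control replicates 3 or 4 or LysM-KI replicate 2), Pecam1 from -0.25 to 0.018 (above 0 without LysM-KI replicate 3) and Selplg from -0.075 to 0.19 (below 0 without control replicate 4 or LysM-KI replicate 2). The r of Itga4 with Itgb1 was -0.11 after removal of group means. The cause of these changes was not tested.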
